A study of Mus musculus with 39 samples.

Results

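Interferon-stimulated genes are the genes that a cell switches on when interferon, a secreted alarm signal of antiviral defence, binds its receptor. A list of 39 such genes was followed through the endoneurium, the inner compartment of the sciatic nerve, of mice whose nerve had been crushed. The genes were taken by symbol from that list, each symbol was mapped to the Ensembl identifier of the count tables, and 39 of 39 were found among the 55573 genes counted and passed the filter on low counts that left 18442 genes to test. The study asked how nerve repair depends on the leptin receptor of Schwann cells, the glia that wrap peripheral axons. It sequenced RNA of 39 endoneuria from 22 mice on a C57BL/6 background, 17 of which gave both the crushed (injured) and the uncrushed contralateral (healthy) nerve, at 2 or 4 weeks post-crush (wpc). Lepr-ctrl mice were Lepr fl/fl and carried no Cre. Lepr-cKO mice were Lepr fl/fl::Dhh-Cre, in which Cre is driven by the Dhh promoter and removes part of Lepr from Schwann cells from embryonic life on. Both genotypes thus carried the floxed allele, the mice were adults of 2 to 4 months and of both sexes per the study's methods, and the sex of a library is not in its label. At 2 wpc there were 5 healthy and 5 injured Lepr-ctrl nerves and 6 healthy and 5 injured Lepr-cKO nerves. At 4 wpc there were 5 healthy and 4 injured nerves of each genotype.

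Type I interferons bind Ifnar1 and Ifnar2, and the kinases Jak1 and Tyk2 then activate a complex that contains Stat2 and Irf9 and binds a promoter sequence called the interferon-stimulated response element. Interferon gamma acts through Ifngr1, Ifngr2, Jak1 and Jak2, and its signal reaches another promoter sequence, the gamma-activated site. The genes switched on include Isg15, a ubiquitin-like protein attached to other proteins, the IFIT proteins, which bind viral RNA, the OAS enzymes, which start the decay of RNA, and Mx and GBP proteins, GTPases that act on viruses and on vacuoles of intracellular microbes. Others load peptides onto MHC class I. C57BL/6 mice carry a defective Mx1 allele, so Mx1 is read here as an RNA level only.

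The promoter sequences are shown first because both kinds of element named above can be looked for in them. RefSeq promoters (build GRCm38.p6, 250 bases before to 50 bases after a start of transcription) matched 30 of the 39 genes. The letters GAAA, any 2 bases, GAAA, searched on both strands with overlapping matches allowed, stood in a promoter of 16 of these 30 genes, against 3.99% of 27025 genes with a promoter. The letters TTCNNNGAA, which read the same on both strands, stood in 7 of 30, against 9.55% of all genes with a promoter, and 11 of 30 held neither. Windows of 60 bases are given for genes whose values the text turns on, 5′ to 3′ in the direction of the gene, with matches of either kind in capitals. The first 6 hold the response element letters, on either strand; Ifit3 and Ifit3b share 1 window sequence, and in Isg15 the matches overlap. Ifit2 and Psmb8 hold only TTCNNNGAA, and Psmb9 and Slfn2 hold neither in the promoter searched. A match is a description of letters, not a site shown to be bound.
Isg15, chr4:156200856-156200915, minus strand: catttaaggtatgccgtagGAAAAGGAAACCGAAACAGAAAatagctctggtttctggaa
Ifit1, chr19:34640769-34640828, plus strand: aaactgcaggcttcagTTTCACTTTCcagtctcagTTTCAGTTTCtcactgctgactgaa
Ifit3, chr19:34583365-34583424, plus strand, and Ifit3b, chr19:34607761-34607820, plus strand: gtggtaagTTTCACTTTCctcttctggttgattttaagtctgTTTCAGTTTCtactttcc
Rsad2, chr12:26456538-26456597, minus strand: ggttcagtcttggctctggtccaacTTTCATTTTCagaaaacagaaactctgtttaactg
Oas1a, chr5:120907508-120907567, minus strand: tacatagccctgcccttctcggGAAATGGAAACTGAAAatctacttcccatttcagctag
Slfn5, chr11:82951922-82951981, plus strand: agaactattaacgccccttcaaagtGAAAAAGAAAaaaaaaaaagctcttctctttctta
Ifit2, chr19:34550444-34550503, plus strand: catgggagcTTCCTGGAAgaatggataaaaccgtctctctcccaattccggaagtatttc
Psmb8, chr17:34198073-34198132, plus strand: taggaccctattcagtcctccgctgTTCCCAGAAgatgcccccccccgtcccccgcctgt
Psmb9, chr17:34187331-34187390, minus strand: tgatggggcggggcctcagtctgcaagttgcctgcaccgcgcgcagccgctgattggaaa
Slfn2, chr11:83065052-83065111, plus strand: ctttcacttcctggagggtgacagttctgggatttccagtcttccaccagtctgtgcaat

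Libraries held 10905806 to 45016322 counts (median 27752451), and injured Lepr-ctrl nerves at 4 wpc were the shallowest group at 10905806 to 17640587. Levels are given as CPM, counts scaled to the size of the library, and 1 CPM is 10.9 reads in the shallowest library. Mice are named as in the sample titles, where all mice at 2 wpc carry the prefix SLRKO2wpc whatever their genotype. Lepr itself was not called between genotypes at either time in injured nerves, although the labels mark it as the targeted gene. The log2 difference by edgeR was 0.39 ± 0.29 (SE), adjusted p = 0.939 at 2 wpc and -0.54 ± 0.33 (SE), adjusted p = 0.362 at 4 wpc. The study describes a deletion of the first exon, with a truncated receptor still made. Reads were counted over the whole gene and not by exon, and the cause of the missing difference was not tested. As a check of the labelled tissue, 10 Schwann cell marker genes summed to 85000 to 117000 CPM in healthy nerves. Macrophage markers (12 genes) summed to 140 to 490 CPM in healthy and 1020 to 4760 CPM in injured nerves. The injured Lepr-cKO nerve of mouse SLRKO2wpc126 at 2 wpc held 41400 CPM of 10 skeletal muscle markers, against at most 34 CPM in any healthy nerve. Without that nerve the number of the 39 genes called in its comparison was 18 rather than 16.

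The interferon genes themselves were at the edge of detection. Of 21 interferon genes, 13 had no read in any library, the highest count was 4, and the 39 libraries held 52 such reads together, of which Ifng and Ifnk gave 15 each. None passed the filter. A count of 0 allows up to 3 reads, which is 0.275 CPM in the shallowest and 0.0666 CPM in the deepest library, so a low level of interferon RNA was not detectable at this depth.

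In healthy Lepr-ctrl nerves at 2 wpc the 39 genes spanned a wide range of levels once divided by exon length. Bst2, which tethers budding viruses to the cell surface, was the highest at 31.6 CPM per kb of exon. Ifit2 followed at 20.9, Ifit3 at 17.5, the guanylate-binding GTPase Gbp2 at 15.4 and Isg15 at 15 CPM per kb. Mx1 at 0.232 and Oas3 at 0.00524 CPM per kb were the lowest. The receptors were expressed as well, Ifnar1 at 80.5 to 97 CPM (not divided by length) in the same nerves.

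In 5 libraries many of the 39 genes were high together, with at least 15 of them over 1.5 times the median of the other libraries of the group. All 5 stayed in the comparisons below, except where a fit is said to leave a nerve out. In the healthy nerve of Lepr-ctrl mouse WT-173 at 4 wpc, 34 of the 39 genes exceeded 1.5 times the median of the other libraries of the group, against 2.51% of all genes tested. The deubiquitinase Usp18, which removes Isg15 from proteins and dampens the interferon receptor, stood at 25.5 CPM there, 6.81 times that median. Isg15 was at 54.1 CPM (6.55 times), Ifit3 at 127.9 CPM (6.13 times), Ifit1 at 61.4 CPM (5.43 times) and Irf7, the transcription factor that amplifies the response, at 41.1 CPM (3.57 times). The genes least raised in that nerve were Ifit2 (1.16 times), Xaf1 (1.36), Oas1a (1.39), Slfn5 (1.39) and Slfn2 (1.48). The crushed nerve of the same mouse was not raised, with Isg15 at 11.5, Ifit1 at 6.74, Irf7 at 10.5 and Usp18 at 4.74 CPM.

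Next came the healthy nerve of Lepr-cKO mouse KO-169 at 4 wpc, with 25 of 39 genes over 1.5 times its group's median (2.79% of all genes), led by Usp18 at 17.5 CPM (4.7 times) and Isg15 at 32 CPM (3.78 times). At 2 wpc that of Lepr-cKO mouse SLRKO2wpc135 had 20 (5.83% of all genes), led by Mx1 at 2.93 CPM (4.45 times). Among injured nerves at 2 wpc, that of Lepr-ctrl mouse SLRKO2wpc131 had 24 (9.62% of all genes) and that of Lepr-cKO mouse SLRKO2wpc125 had 15 (10.7% of all genes). Whole libraries also ran low: in the injured nerve of Lepr-ctrl mouse SLRKO2wpc147 25 of 39 genes lay below the median of the others by more than 1.5 times (7.05% of all genes), in that of SLRKO2wpc123 19 (11.1%) and in that of Lepr-cKO mouse SLRKO2wpc126 13 (14.2%). The first pair belong to the group of SLRKO2wpc131 and lower the median it is set against. In these 5 libraries Isg15, Ifit1, Ifit3, Ifit3b, Usp18, Oasl2, Mx1 and Mx2 were all above 1.5 times the median, whereas Stat2 passed that mark only in mouse WT-173 and Psmb9 only in mouse WT-173. The other nerve of each of the 5 mice did not share the rise in Isg15, at 0.899 to 1.3 times its own group's median. Macrophage markers in the 3 healthy nerves were at 322 CPM for mouse WT-173 (its group 192 to 381), 268 CPM for KO-169 (140 to 270) and 188 CPM for SLRKO2wpc135 (188 to 490). KO-169 was thus near the top of its group and SLRKO2wpc135 at the bottom. The 10 markers of T and NK cells were within their groups, at 1.35 CPM (0.492 to 1.59), 0.624 CPM (0.363 to 1.34) and 0.62 CPM (0.62 to 1.39). In the injured nerve of mouse SLRKO2wpc131 the T and NK markers were the highest of the group at 29.3 CPM (range 11.2 to 29.3). The 7 markers of plasmacytoid dendritic cells, which make much type I interferon, summed to 3.4, 4.29 and 3.58 CPM in the healthy nerves of mice WT-173, KO-169 and SLRKO2wpc135 and to 7.45 and 4.32 CPM in the injured nerves of SLRKO2wpc131 and SLRKO2wpc125, within the 2.07 to 12.4 CPM of all libraries except 1. That 1, the injured nerve of SLRKO2wpc126 that held muscle markers, was at 199 CPM, of which Cox6a2, a gene also expressed in muscle, gave 196.3 CPM. Within its own group the healthy nerve of KO-169 had the highest sum of these 7 markers, at 4.29 CPM (range 2.07 to 4.29). The part of these cell types in these values was not tested.

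**Figure D1:**
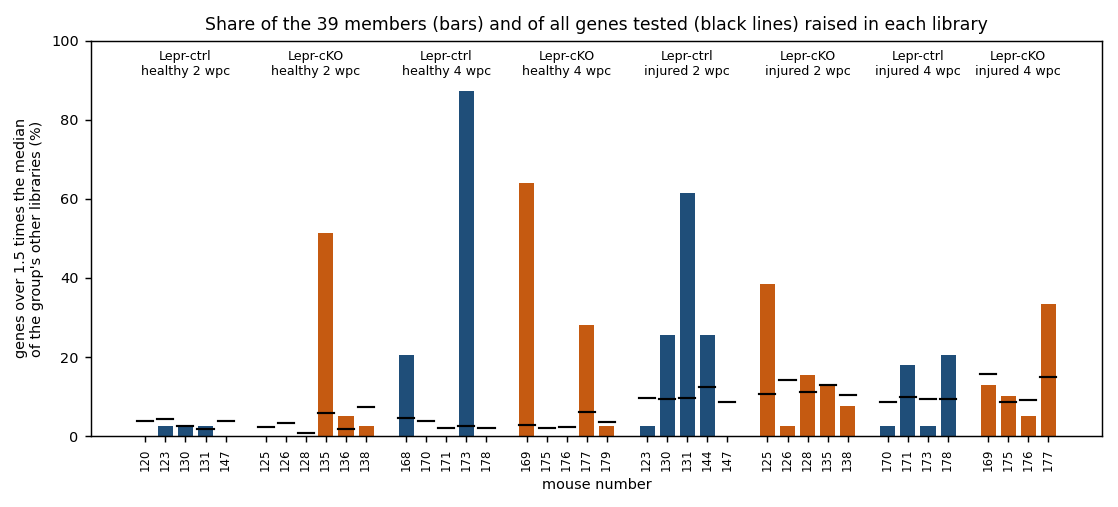
Share of the 39 interferon-stimulated genes (bars, percent) and of all genes tested (black lines, percent) that exceeded 1.5 times the median of the other libraries of the same group, by mouse number and group (blue Lepr-ctrl, orange Lepr-cKO). The healthy nerve of mouse WT-173 has the tallest bar, with 34 of 39 genes, while its black line is at 2.51%.

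**Figure D2:**
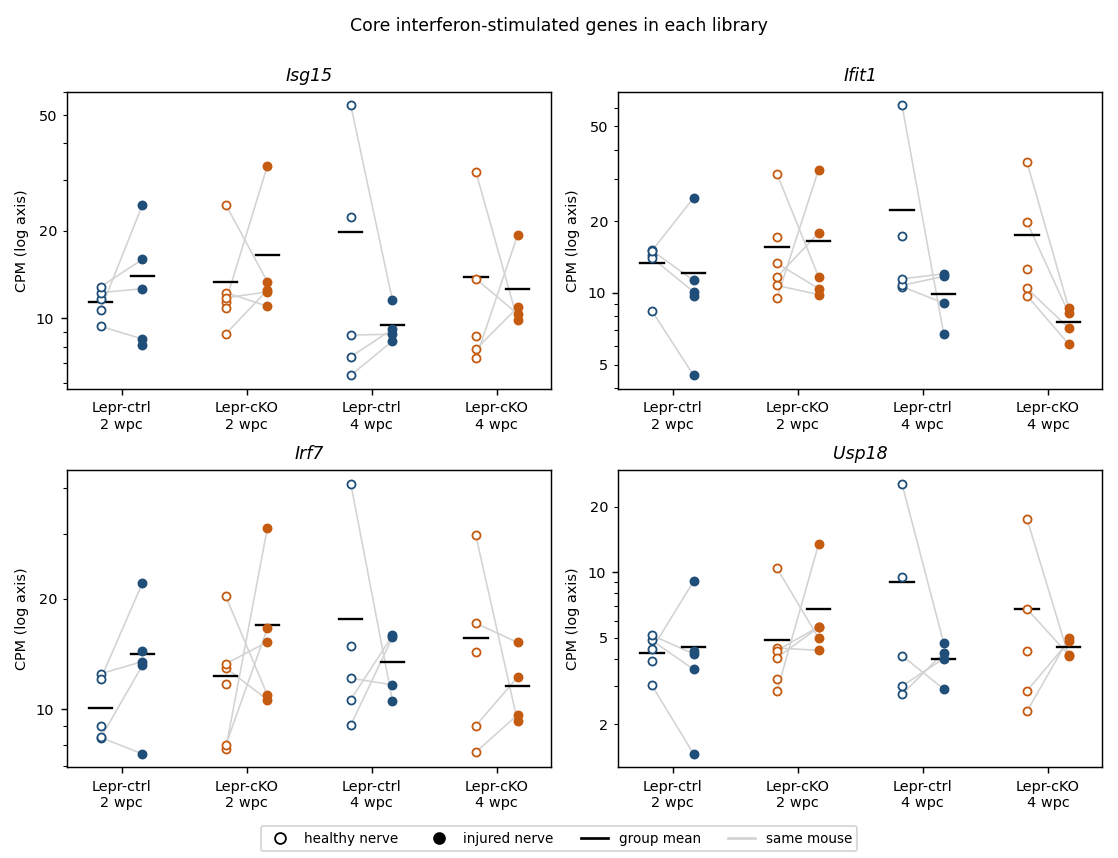
CPM (log axis) of Isg15, Ifit1, Irf7 and Usp18 in every library, by group; each point is a nerve and lines join the healthy and the injured nerve of 1 mouse. Mouse WT-173 lies highest among healthy nerves in all 4 panels (Isg15 54.1 CPM), and healthy and injured groups overlap at 2 wpc.

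The response to crush was split within the list. In Lepr-ctrl nerves at 2 wpc, 17 of 39 genes rose and 2 fell (edgeR's quasi-likelihood test, called at an adjusted p below 0.05 with a log2 fold change beyond 1 in either direction), against 19.8% of all genes tested that rose and 14.3% that fell. The antigen-processing genes, both Schlafen genes, Trim30a and Oas1a rose, while Ifit2 and Rsad2 fell. In Lepr-cKO nerves at 2 wpc, 14 rose and 2 fell (20.9% and 13.4% of all genes). At 4 wpc fewer rose, 7 with 5 that fell in Lepr-ctrl (20.1% and 15.9%) and 7 with 4 that fell in Lepr-cKO (16.8% and 10.8%). The counts at 4 wpc are near those shares and are no result about the list, while those of higher calls at 2 wpc lie above them, as a description with no test that did not hold in every fit, as given below. The median log2 fold change of the 39 genes was 0.79 at 2 wpc in Lepr-ctrl against 0.08 over all genes, and 0.70 against 0.10 in Lepr-cKO. At 4 wpc it was 0.23 against 0.02 in Lepr-ctrl and 0.16 against 0.06 in Lepr-cKO. The comparisons of 1 genotype at 2 and 4 wpc share no library.

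These counts depended on single nerves and on the pairing of nerves by mouse. Without the injured nerve of mouse SLRKO2wpc131, 12 rather than 19 of the 39 genes were called in Lepr-ctrl at 2 wpc, without that of mouse SLRKO2wpc125, 11 rather than 16 in Lepr-cKO at 2 wpc, and without that of mouse KO-175, 7 rather than 11 in Lepr-cKO at 4 wpc. With the mouse as a block over the 17 mice with both nerves, 11 genes were called in Lepr-ctrl at 2 wpc (9 higher, 2 lower), against 18.3% of all genes higher and 13.3% lower in that fit, and 10 higher and 2 lower in Lepr-cKO at 2 wpc, against 18.2% and 13.9%. The counts without 1 injured nerve were 10 higher without that of SLRKO2wpc131, against 20% of all genes, and 9 higher without that of SLRKO2wpc125, against 21.3%. In these fits the number of higher calls among the 39 genes is thus near the share over all genes. The calls lost there with the block were Mx1 (adjusted p = 0.0608), Mx2 (0.154) and Zbp1 (0.0806), and 5 genes whose log2 fold change slipped below 1 with an adjusted p still under 0.05, namely Dhx58 (0.83), Ifi44 (0.70), Gbp3 (0.89), Parp14 (0.95) and Eif2ak2 (0.91).

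The RNA of cell type markers moved with the crush. Macrophage markers summed to 222 to 377 CPM in healthy and 1380 to 3800 CPM in injured Lepr-ctrl nerves at 2 wpc, with 8 of 12 called higher and 1 lower, T and NK cell markers to 0.88 to 1.36 and 11.2 to 29.3 CPM with 9 of 10 higher, and Schwann cell markers to 93900 to 117000 and 11500 to 52700 CPM with 6 of 10 lower. Over all genes tested 19.8% were called higher and 14.3% lower in that comparison. The part of these cell types in the changes below was not tested. In bulk tissue, more cells of a type and more RNA per cell cannot be told apart.

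**Figure D3:**
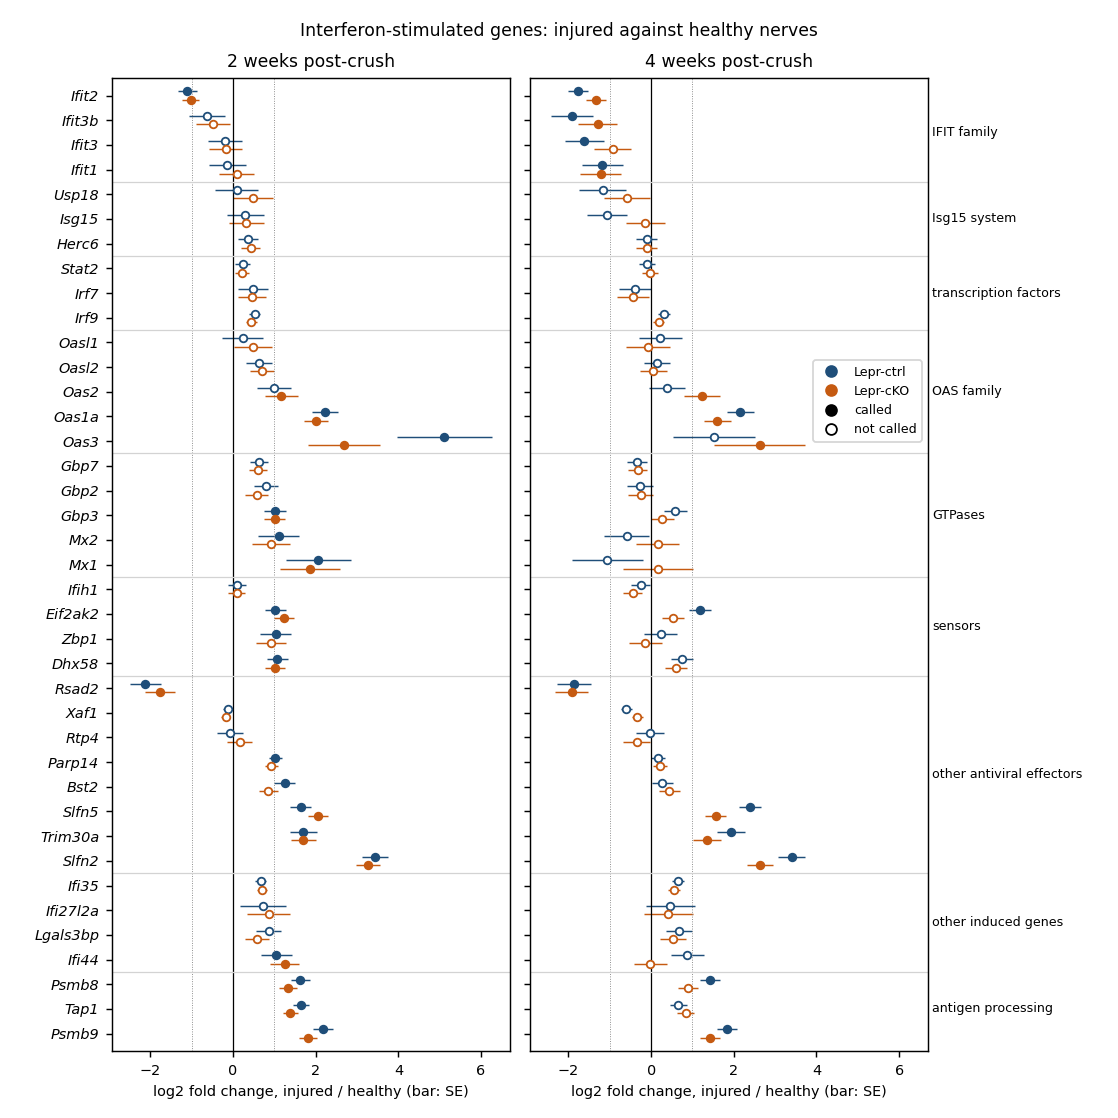
Log2 fold change of injured over healthy nerves for the 39 genes, ordered by role, at 2 wpc (left) and 4 wpc (right); points are fitted values, bars the standard error, filled points were called and dotted lines mark the fold limit. Ifit2 and Rsad2 lie below -1 and Slfn2, Oas1a and Psmb9 above 1 in all 4 comparisons.

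The IFIT family did not rise with the crush. Ifit2, a cytoplasmic RNA-binding protein, fell in all 4 comparisons. Its healthy Lepr-ctrl nerves at 2 wpc held 84.4, 76.3, 91.5, 90 and 67.7 CPM and the injured ones 26.7, 62, 55.5, 24.9 and 21.2 CPM, a log2 fold change of -1.11 ± 0.22 (SE), adjusted p = 5.87e-05. Every injured nerve lay below every healthy one, those of mice SLRKO2wpc130 and SLRKO2wpc131 being the closest. At 4 wpc the Lepr-ctrl values were 75, 70.5, 81.3, 88.8 and 78.1 CPM in healthy and 21.3, 20.5, 21.8 and 29 CPM in injured nerves (-1.77 ± 0.25 (SE), adjusted p = 1.9e-07). Healthy Lepr-cKO nerves at 2 wpc ran from 70.6 to 98.5 CPM (median 79, n = 6) and injured ones were at 52, 32.3, 26.9, 48.9 and 38.6 CPM (-1.03 ± 0.22 (SE), adjusted p = 9.12e-05), and at 4 wpc the values were 92.7, 74.1, 70.1, 68.6 and 71.7 CPM in healthy and 47.3, 21.8, 28.1 and 22 CPM in injured nerves (-1.34 ± 0.24 (SE), adjusted p = 2.09e-05). The groups did not overlap in any of the 4 comparisons, and in all 17 mice with both nerves the injured nerve was lower, at 0.246 to 0.736 times the healthy one. Ifit2 (chr19:34550694-34576419, plus strand, GRCm38) shares none of its exon sequence in stretches of 50 bases, the read length, with another gene.

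None of the other IFIT genes was called at 2 wpc. At 4 wpc all 3 were called lower in Lepr-ctrl, and Ifit3b and Ifit1 but not Ifit3 in Lepr-cKO. Ifit3b was at 13.2, 12.2, 12.1, 10.1 and 9.66 CPM in healthy and 6.37, 11.4, 11.6, 4.37 and 3.3 CPM in injured Lepr-ctrl nerves at 2 wpc (-0.63 ± 0.44 (SE), adjusted p = 0.208), and at 4 wpc at 20.5, 5.21, 6.18, 44.1 and 7.57 and 4.35, 4.53, 4.07 and 4.88 CPM (-1.91 ± 0.50 (SE), adjusted p = 0.00119). The 44 CPM is mouse WT-173, and without that nerve the log2 fold change was -1.16 with an adjusted p of 0.0205. Lepr-cKO values of Ifit3b at 2 wpc ran from 7.53 to 21.8 CPM (median 10.5, n = 6) in healthy nerves against 14.8, 7.04, 5.77, 9.09 and 5.75 CPM in injured ones (-0.49 ± 0.42 (SE), adjusted p = 0.305), with overlapping groups. At 4 wpc they were 28.8, 9.19, 7.88, 13.6 and 8.39 CPM in healthy and 7.02, 4.32, 4.77 and 5.93 CPM in injured nerves, with no overlap (-1.29 ± 0.48 (SE), adjusted p = 0.0219). The Lepr-cKO call was lost without the healthy nerve of mouse KO-169 or the injured nerve of KO-175 or KO-176, with a log2 fold change as small as -0.82 and an adjusted p of up to 0.139. Ifit3b and its neighbour Ifit3 share 45% and 51.2% of their 50-base stretches with each other or with near copies, so their counts are not independent.

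Ifit3 had a log2 fold change of -1.62 ± 0.47 (SE), adjusted p = 0.00309 in Lepr-ctrl and -0.93 ± 0.45 (SE), adjusted p = 0.0806 in Lepr-cKO at 4 wpc, and Ifit1 of -1.18 ± 0.49 (SE), adjusted p = 0.0354 and -1.22 ± 0.49 (SE), adjusted p = 0.0342. Both Lepr-ctrl calls rested on mouse WT-173, without whose healthy nerve the adjusted p was 0.079 for Ifit3 and 0.483 for Ifit1. With the mouse as a block they were 0.0702 for Ifit3 and 0.228 for Ifit1, and 0.059 for Ifit1 in Lepr-cKO. The Ifit1 call in Lepr-cKO was also lost on leaving out the healthy nerve of mouse KO-169 or the injured nerve of KO-175, KO-176 or KO-177 (adjusted p up to 0.165). At 2 wpc neither gene was called, with log2 fold changes from -0.19 to 0.08. Over the 17 mice, Ifit1 and Ifit3 were each lower in the injured nerve of 12 and higher in that of 5.

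Rsad2, also called viperin, an enzyme that makes a chain-terminating nucleotide, fell beside Ifit2 in all 4 comparisons. Its Lepr-ctrl values at 2 wpc were 20, 11.5, 23.9, 20.6 and 13.7 CPM in healthy and 4.15, 4.41, 5.98, 3.09 and 2.9 CPM in injured nerves (-2.12 ± 0.37 (SE), adjusted p = 7.68e-06), and at 4 wpc 15.2, 10.4, 9.9, 37.7 and 12.6 CPM in healthy and 4.62, 2.3, 4.29 and 7.89 CPM in injured nerves (-1.87 ± 0.41 (SE), adjusted p = 0.000178). The highest value was again the healthy nerve of mouse WT-173, without which the call held at a log2 fold change of -1.36. In Lepr-cKO, healthy nerves at 2 wpc ran from 7.22 to 30.6 CPM (median 19.1, n = 6) and injured ones were at 7.69, 6.36, 4.08, 2.75 and 6.74 CPM (-1.77 ± 0.36 (SE), adjusted p = 5.36e-05). At 4 wpc Lepr-cKO nerves held 24.6, 13.3, 15.5, 20.3 and 13.1 CPM healthy and 3.67, 2.35, 6.24 and 6.06 CPM injured (-1.93 ± 0.41 (SE), adjusted p = 0.000147). Only the Lepr-cKO groups at 2 wpc overlapped, through the healthy nerve of mouse SLRKO2wpc125 at 7.22 CPM, and 16 of 17 mice were lower in the injured nerve. The response element letters shown above for Rsad2 stand as well in genes that did not fall. Of the 16 genes with these letters, 7 rose, 1 fell and 8 were not called in Lepr-ctrl at 2 wpc. Of all 30 genes with a promoter, 12 rose, 2 fell and 16 were not called, and of all genes tested 19.8% rose and 14.3% fell. These counts are no result about the letters.

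**Figure D4:**
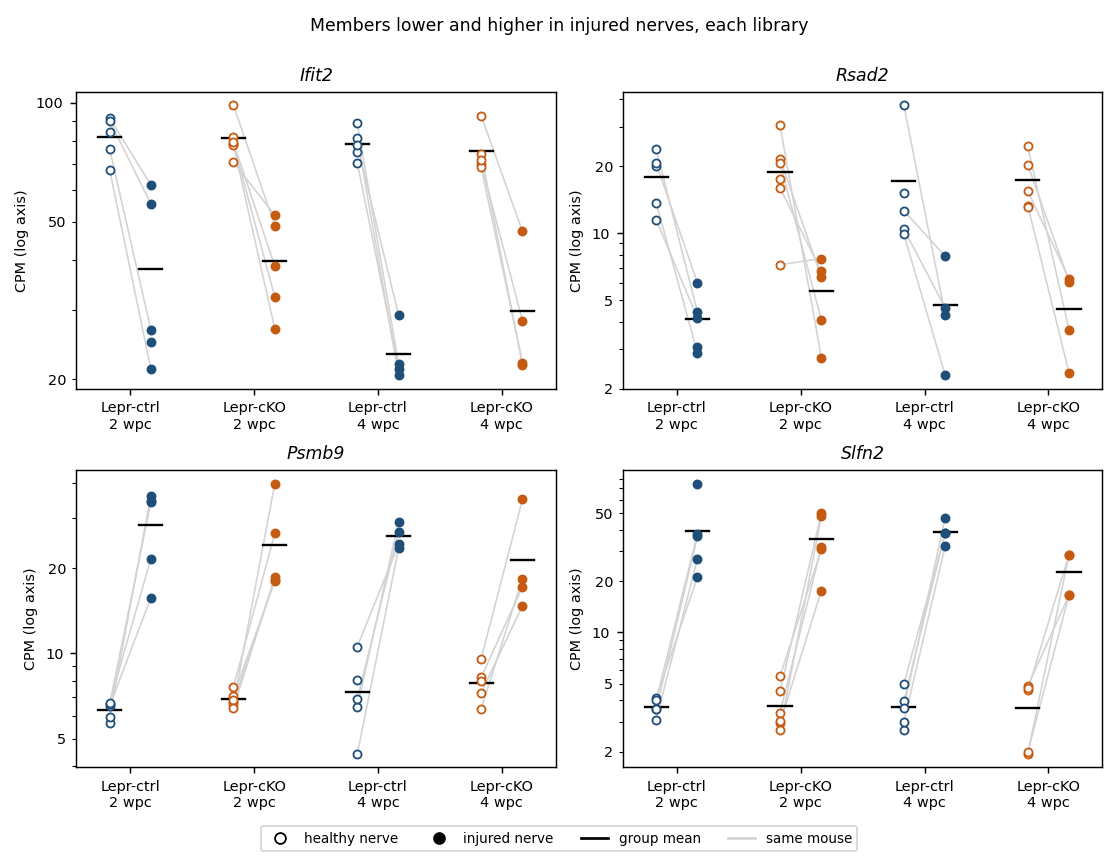
CPM (log axis) of Ifit2, Rsad2, Psmb9 and Slfn2 in every library, by group; each point is a nerve and lines join the 2 nerves of 1 mouse. Ifit2 is lower and Psmb9 and Slfn2 are higher in the injured nerve of all 17 mice.

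The antigen-processing genes rose together at 2 wpc. Psmb8 and Psmb9 are catalytic subunits of the immunoproteasome, and Tap1 is a subunit of the pump that carries peptides to MHC class I. Psmb8 was at 14.7, 15.5, 14.9, 14.4 and 15.8 CPM in healthy and 22.4, 62.6, 49.8, 60.3 and 36.4 CPM in injured Lepr-ctrl nerves (1.62 ± 0.23 (SE), adjusted p = 2.42e-07), and at 4 wpc at 20.7, 13.6, 15.9, 28.5 and 14.3 and 44.1, 56.7, 49.6 and 50.3 CPM (1.43 ± 0.24 (SE), adjusted p = 4.39e-06). Lepr-cKO nerves went from 13.2 to 18.8 CPM (median 15.9, n = 6) when healthy to 30.4, 28.9, 66, 43.5 and 30.9 CPM when injured at 2 wpc (1.32 ± 0.22 (SE), adjusted p = 2.62e-06). At 4 wpc Lepr-cKO values were 22.8, 18.3, 16, 24.2 and 16.4 CPM healthy and 29.3, 38.1, 27.5 and 51.3 CPM injured, a difference under the fold limit (0.90 ± 0.24 (SE), adjusted p = 0.00187). Every injured nerve exceeded every healthy nerve of its group, although the injured nerve of mouse SLRKO2wpc123 reached only 22.4 CPM. Psmb9, chosen for the plot after its values were seen, was at 5.67 to 6.68 CPM in healthy and 15.7, 36.1, 34.3, 34.6 and 21.6 CPM in injured Lepr-ctrl nerves at 2 wpc (2.18 ± 0.24 (SE), adjusted p = 8.13e-10) and was called in all 4 comparisons. The injured-to-healthy ratio of Psmb9 in the 17 mice was 2.03 to 6.04, with a median of 3.24. Tap1 rose at 2 wpc (1.64 ± 0.20 (SE), adjusted p = 8.67e-09 in Lepr-ctrl and 1.39 ± 0.19 (SE), adjusted p = 6.64e-08 in Lepr-cKO) and stayed under the fold limit at 4 wpc (0.65 ± 0.21 (SE), adjusted p = 0.00624 and 0.84 ± 0.21 (SE), adjusted p = 0.000776). Psmb9 and Tap1 lie head to head on opposite strands of chr17 and overlap in 5.79% and 3.87% of their exon length, and the strand setting of the counts is not stated.

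Among the other antiviral effectors, Slfn2, a Schlafen protein that maintains T cell and monocyte quiescence, had the largest rise of the well-counted genes. It stood at 3.55, 4.12, 4.0, 3.54 and 3.07 CPM in healthy and 21.2, 37.9, 36.6, 74.6 and 27.2 CPM in injured Lepr-ctrl nerves at 2 wpc (3.43 ± 0.32 (SE), adjusted p = 2.32e-11). At 4 wpc it was at 2.67, 3.96, 3.0, 5.01 and 3.62 and 38.4, 32.2, 38.2 and 47.2 CPM (3.41 ± 0.33 (SE), adjusted p = 7.04e-11). The highest injured value, 74.6 CPM, was mouse SLRKO2wpc144, and no groups overlapped. In Lepr-cKO, healthy nerves at 2 wpc ran from 2.68 to 5.54 CPM (median 3.22, n = 6) and injured ones were at 31.6, 17.6, 48, 50 and 30.7 CPM (3.27 ± 0.29 (SE), adjusted p = 1.12e-11), and at 4 wpc the values were 4.84, 1.94, 1.98, 4.58 and 4.74 CPM healthy and 16.6, 28.6, 16.7 and 28.6 CPM injured (2.64 ± 0.32 (SE), adjusted p = 2.23e-08). The ratio in single mice was 3.42 to 17.9, with a median of 9.3. Its relative Slfn5 rose in all 4 comparisons (log2 fold change 1.63, 2.40, 2.06 and 1.56 in the order Lepr-ctrl 2 and 4 wpc, Lepr-cKO 2 and 4 wpc), as did Trim30a, which restrains Toll-like receptor signalling (1.70, 1.94, 1.70 and 1.36).

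Parp14, an ADP-ribosyltransferase, was at 46, 54.7, 56.5, 55.9 and 43.6 CPM in healthy and 96.4, 137.7, 106, 104 and 75.2 CPM in injured Lepr-ctrl nerves at 2 wpc (1.02 ± 0.16 (SE), adjusted p = 1.2e-06), and at 55.5, 49.6, 67, 102 and 56 and 65.9, 67.2, 87.4 and 74.2 CPM at 4 wpc (0.16 ± 0.17 (SE), adjusted p = 0.421). The groups were apart at 2 wpc and overlapped at 4 wpc, where mouse WT-173 gave the highest healthy value. Lepr-cKO nerves were at 46.8 to 57 CPM (median 51.1, n = 6) and 106, 72, 98.1, 121 and 94.7 CPM at 2 wpc (0.93 ± 0.15 (SE), adjusted p = 2.14e-06, under the fold limit), and at 59.4, 78.4, 63.2, 88.3 and 58.1 and 79.9, 85.3, 71.1 and 88 CPM at 4 wpc (0.22 ± 0.17 (SE), adjusted p = 0.261). Bst2 rose in Lepr-ctrl at 2 wpc (1.25 ± 0.25 (SE), adjusted p = 5.24e-05). In Lepr-cKO at 2 wpc it was also higher in every injured nerve, at 27.7 to 46.2 CPM healthy and 59.1 to 76.7 CPM injured, under the fold limit (0.85 ± 0.24 (SE), adjusted p = 0.00189), and at 4 wpc it was not called (0.27 ± 0.26 (SE), adjusted p = 0.373 in Lepr-ctrl and 0.44 ± 0.26 (SE), adjusted p = 0.151 in Lepr-cKO). Xaf1, a pro-apoptotic factor, and Rtp4, a receptor chaperone, were not called anywhere, with log2 fold changes of -0.60 to -0.13 and -0.35 to 0.16.

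Isg15 and the transcription factors showed no call in any injury comparison. Isg15 was at 11.6, 12.3, 12.9, 10.7 and 9.39 CPM in healthy and 12.7, 16, 24.5, 8.12 and 8.5 CPM in injured Lepr-ctrl nerves at 2 wpc (0.30 ± 0.45 (SE), adjusted p = 0.574), and at 22.3, 6.38, 7.39, 54.1 and 8.77 and 8.36, 9.18, 11.5 and 8.82 CPM at 4 wpc (-1.07 ± 0.49 (SE), adjusted p = 0.0585). The injured nerve of mouse SLRKO2wpc131 and the healthy nerves of mice WT-173 and WT-168 were the high ones, and without the healthy nerve of mouse WT-173 the log2 fold change at 4 wpc was -0.25. Lepr-cKO nerves ran from 8.84 to 24.6 CPM (median 11.6, n = 6) when healthy and were at 33.5, 11, 12.3, 13.4 and 12.5 CPM when injured at 2 wpc (0.32 ± 0.43 (SE), adjusted p = 0.524), and at 4 wpc at 32, 7.29, 7.83, 13.7 and 8.73 and 9.88, 19.3, 10.9 and 10.4 CPM (-0.14 ± 0.48 (SE), adjusted p = 0.821). In those groups the healthy nerves of mice SLRKO2wpc135 and KO-169 and the injured nerve of mouse SLRKO2wpc125 were high. In single mice the ratio ran from 0.213 to 2.93, higher in the injured nerve of 11 mice and lower in 6.

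Usp18 was higher in the injured nerve of 8 mice and lower in 9, and its log2 fold changes were 0.09, -1.17, 0.48 and -0.58 in the order above. Herc6, the main ligase that attaches Isg15 in mice, stayed within -0.11 to 0.42. Stat2, a subunit of the complex that binds the response element, was at 47.5, 50.4, 51.9, 49.1 and 50.1 CPM in healthy and 58, 43.5, 62.5, 79.6 and 49.7 CPM in injured Lepr-ctrl nerves at 2 wpc, and at 45, 45.1, 46.3, 87.5 and 54.5 and 52, 46.8, 51.5 and 56.1 CPM at 4 wpc. In Lepr-cKO it was at 45.4 to 60 CPM (median 51.3, n = 6) and 78.8, 36.4, 60.7, 63.9 and 57.8 CPM at 2 wpc and at 52.8, 48.6, 51.4, 62.3 and 54.5 and 31.5, 63.2, 49.2 and 69.5 CPM at 4 wpc. All these groups overlapped, and the largest of the 4 log2 fold changes was 0.24 ± 0.18 (SE), adjusted p = 0.255. Irf9 differed at 2 wpc under the fold limit (0.53 ± 0.14 (SE), adjusted p = 0.00102 in Lepr-ctrl and 0.44 ± 0.13 (SE), adjusted p = 0.00301 in Lepr-cKO), and Irf7 ran from -0.43 to 0.49 with no adjusted p under 0.05.

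Of the OAS family, whose product activates RNase L, Oas1a rose in all 4 comparisons. Its Lepr-ctrl values at 2 wpc were 0.88, 0.62, 1.41, 1.3 and 1.11 CPM in healthy and 3.55, 5.06, 6.47, 6.22 and 3.66 CPM in injured nerves (2.22 ± 0.31 (SE), adjusted p = 1.47e-07), and at 4 wpc 1.19, 0.917, 0.94, 1.57 and 1.23 and 4.09, 6.63, 4.23 and 6.1 CPM (2.16 ± 0.32 (SE), adjusted p = 6.09e-07). In Lepr-cKO they were 0.874 to 1.47 CPM (median 1.03, n = 6) and 7.35, 2.12, 4.77, 4.07 and 3.6 CPM at 2 wpc (2.01 ± 0.29 (SE), adjusted p = 2.52e-07), and 1.87, 0.769, 0.969, 1.68 and 1.24 and 1.95, 4.43, 2.99 and 6.65 CPM at 4 wpc (1.61 ± 0.32 (SE), adjusted p = 7.64e-05). No groups overlapped, although the injured and the healthy nerve of mouse KO-169, at 1.95 and 1.87 CPM, nearly met. Oas1a shares 57.6% of its 50-base stretches with Oas1g, Oas1b or other copies, so its counts are uncertain.

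Oas3 was barely detected in healthy Lepr-ctrl nerves at 2 wpc, at 0.0303, 0.155, 0, 0 and 0 CPM (at most 5 reads), and was at 0.343, 0.29, 4.54, 1.66 and 0.22 CPM in injured ones. The fitted log2 fold change of 5.11 ± 1.15 (SE), adjusted p = 0.000241 rests on those few reads and is not a bound. Oas3 passed the filter on low counts mainly through injured nerves, where it was high. Its calls are in the counts above but give no support for a rise. At 4 wpc it was at 0, 0.0833, 0.0895, 0.867 and 0.162 and 0.348, 1.15, 0.446 and 1.13 CPM (1.52 ± 1.00 (SE), adjusted p = 0.187). In Lepr-cKO nerves Oas3 ran from 0 to 0.479 CPM (median 0.147, n = 6) when healthy and was at 4.21, 0.339, 0.367, 0.319 and 0.353 CPM when injured at 2 wpc (2.68 ± 0.88 (SE), adjusted p = 0.00784), and at 0.351, 0, 0.0404, 0.0864 and 0.0744 and 0.808, 0.985, 0.609 and 0.326 CPM at 4 wpc (2.62 ± 1.09 (SE), adjusted p = 0.0402). Both Lepr-cKO calls were lost with the mouse as a block (adjusted p = 0.129 and 0.0521). The call at 2 wpc was also lost without the injured nerve of mouse SLRKO2wpc125 (log2 fold change 1.01, adjusted p = 0.315). That at 4 wpc was lost in 7 of the 9 fits that left out 1 library (adjusted p up to 0.0904).

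Oasl2, an OAS-like protein, was at 20, 18.9, 28.6, 24.2 and 16.8 CPM in healthy and 22.5, 32.6, 53.8, 41.6 and 17.3 CPM in injured Lepr-ctrl nerves at 2 wpc (0.63 ± 0.31 (SE), adjusted p = 0.0727), and at 28.2, 18.3, 23.6, 66.2 and 24.3 and 30, 34.7, 30.5 and 47.2 CPM at 4 wpc (0.14 ± 0.33 (SE), adjusted p = 0.716). Lepr-cKO nerves were at 16.8 to 36.5 CPM (median 21, n = 6) and 57.9, 23.9, 32.2, 42.1 and 31.9 CPM at 2 wpc (0.70 ± 0.29 (SE), adjusted p = 0.0357), and at 51.3, 21.9, 22.5, 36.8 and 24.3 and 26, 29.4, 28.4 and 46.6 CPM at 4 wpc (0.05 ± 0.33 (SE), adjusted p = 0.9). All groups overlapped, and mouse WT-173 again gave the highest healthy value. Oas2 was called in Lepr-cKO at 2 wpc (1.17) and 4 wpc (1.24), and with the mouse as a block neither call held (log2 fold change 0.99 at 2 wpc, adjusted p = 0.121 at 4 wpc). Oasl1 was not called, at -0.07 to 0.48.

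The GTPases rose in part at 2 wpc and not at 4 wpc. Gbp2 was at 40.4, 36.8, 44.3, 41.4 and 30.9 CPM in healthy and 36.1, 102, 125.2, 42.3 and 30.7 CPM in injured Lepr-ctrl nerves at 2 wpc (0.79 ± 0.29 (SE), adjusted p = 0.0182, under the fold limit). The injured nerves of mice SLRKO2wpc130 and SLRKO2wpc131 were far above the healthy ones and the other injured nerves were not. At 4 wpc Gbp2 was at 47.1, 29.5, 37.3, 89.6 and 32.8 and 37.4, 43.3, 42.2 and 33 CPM (-0.28 ± 0.31 (SE), adjusted p = 0.448). Lepr-cKO nerves were at 31.7 to 48.4 CPM (median 37.2, n = 6) and 50.6, 53.8, 48.3, 76.9 and 58.6 CPM at 2 wpc (0.57 ± 0.28 (SE), adjusted p = 0.0713), and at 70.5, 41.3, 37.8, 51.4 and 36.9 and 55.2, 25.4, 35.9 and 42.6 CPM at 4 wpc (-0.26 ± 0.31 (SE), adjusted p = 0.499), with overlapping groups throughout. Gbp3 was called at 2 wpc in both genotypes at the very edge of the limit (1.01 and 1.00, and 0.94 with the block in Lepr-cKO), and Gbp7 was not called (0.63, -0.35, 0.60 and -0.33). Mx1 was called at 2 wpc in Lepr-ctrl (2.06 ± 0.79 (SE), adjusted p = 0.0221) and in Lepr-cKO (1.86 ± 0.73 (SE), adjusted p = 0.0245, and 0.0843 with the block). The first call was lost without the healthy nerve of mouse SLRKO2wpc120 or the injured nerve of mouse SLRKO2wpc131. The Lepr-cKO call was lost in 4 of 11 fits that left out 1 library, the injured nerve of mouse SLRKO2wpc125 among them (log2 fold change down to 1.06, adjusted p up to 0.206). Mx2 was called only in Lepr-ctrl at 2 wpc (1.10 ± 0.49 (SE), adjusted p = 0.0495), a call lost on leaving out 8 of the 10 libraries in turn.

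Of the sensors of foreign nucleic acid, Ifih1, which binds long double-stranded RNA, did not change by the test. It was at 14.7, 13.6, 19.1, 19.4 and 10.7 CPM in healthy and 10.5, 21.5, 22.3, 18.4 and 9.97 CPM in injured Lepr-ctrl nerves at 2 wpc (0.09 ± 0.21 (SE), adjusted p = 0.717), and at 16.7, 13.7, 15.8, 27.2 and 13.9 and 13.2, 18.4, 12.7 and 14.4 CPM at 4 wpc (-0.25 ± 0.23 (SE), adjusted p = 0.342). Lepr-cKO nerves were at 13.5 to 21.2 CPM (median 15.2, n = 6) and 14.8, 15.5, 16.1, 23.1 and 15.9 CPM at 2 wpc (0.09 ± 0.20 (SE), adjusted p = 0.726), and at 22.6, 14.2, 16.9, 17.6 and 16.1 and 16.4, 10.2, 10.6 and 14.1 CPM at 4 wpc (-0.44 ± 0.23 (SE), adjusted p = 0.098). The groups overlapped in each comparison. Eif2ak2, the kinase PKR that halts translation, was called in 3 comparisons (1.02 and 1.18 in Lepr-ctrl, 1.23 in Lepr-cKO at 2 wpc) and was at 0.53 in Lepr-cKO at 4 wpc. Dhx58, a regulator of RNA sensing, was called at 2 wpc in both genotypes (1.07 and 1.01), and Zbp1, a sensor that can start necroptosis, in Lepr-ctrl at 2 wpc (1.03). The Zbp1 and Ifi44 calls in Lepr-ctrl were lost without the injured nerve of mouse SLRKO2wpc131.

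Ifi35, which binds other interferon-induced proteins, was higher in every injured nerve by a modest amount. It was at 22.4, 23, 21.1, 19.6 and 23.1 CPM in healthy and 29.5, 35.7, 38.7, 41 and 28.1 CPM in injured Lepr-ctrl nerves at 2 wpc (0.67 ± 0.13 (SE), adjusted p = 4.34e-05), and at 25.6, 20.5, 18.5, 33.4 and 22 and 39.8, 36.3, 34.5 and 41 CPM at 4 wpc (0.66 ± 0.14 (SE), adjusted p = 0.000116). Lepr-cKO nerves were at 19.8 to 26.8 CPM (median 23.8, n = 6) and 39.8, 30, 42.7, 40.9 and 35.4 CPM at 2 wpc (0.69 ± 0.12 (SE), adjusted p = 1.12e-05), and at 27.7, 21.8, 21.4, 29.7 and 21.2 and 32.4, 35.4, 34.4 and 40.8 CPM at 4 wpc (0.55 ± 0.14 (SE), adjusted p = 0.00105). No groups overlapped, all 4 adjusted p-values were under 0.05 and no change reached the fold limit. Ifi44 was called at 2 wpc in both genotypes (1.04 and 1.25), and Ifi27l2a (0.41 to 0.86) and Lgals3bp, a secreted galectin ligand (0.52 to 0.86), were not called.

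The response to injury was compared between 4 and 2 wpc as an interaction in the fit, which uses all 4 groups of a genotype. The mice at 2 and 4 wpc were different animals with different title prefixes. A difference in the response by time thus cannot be told apart from one by cohort. None of the 39 genes was called in either genotype by edgeR, against 1.61% of all genes called higher and 2.81% called lower in Lepr-ctrl and 0.949% and 0.466% in Lepr-cKO. At an unadjusted p under 0.05 there were 13 of the 39 in Lepr-ctrl and 4 in Lepr-cKO, against 4527 and 2699 of the 18442 genes tested. The first share lies above that of all genes and the second below it, a description with no test. DESeq2 called 1 of the 39 in Lepr-ctrl and 0 in Lepr-cKO. In Lepr-ctrl 34 of 39 values were below 0 with a median of -0.46 against 0.01 over all genes, and 2 had an adjusted p under 0.05 with a change under the fold limit, Parp14 (-0.86 ± 0.23 (SE), adjusted p = 0.0158) and Tap1 (-0.99 ± 0.29 (SE), adjusted p = 0.0245). Without the healthy nerve of mouse WT-173 the median was -0.18, 27 were below 0 and the adjusted p of Tap1 was 0.066. With the mouse as a block the adjusted p of Tap1 was 0.0736. In Lepr-cKO 38 of 39 were below 0 with a median of -0.53, and without the healthy nerve of mouse KO-169 the median was -0.36 with 34 below 0. Counts of values below 0 carry no test, since the genes move together within a nerve.

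**Figure D5:**
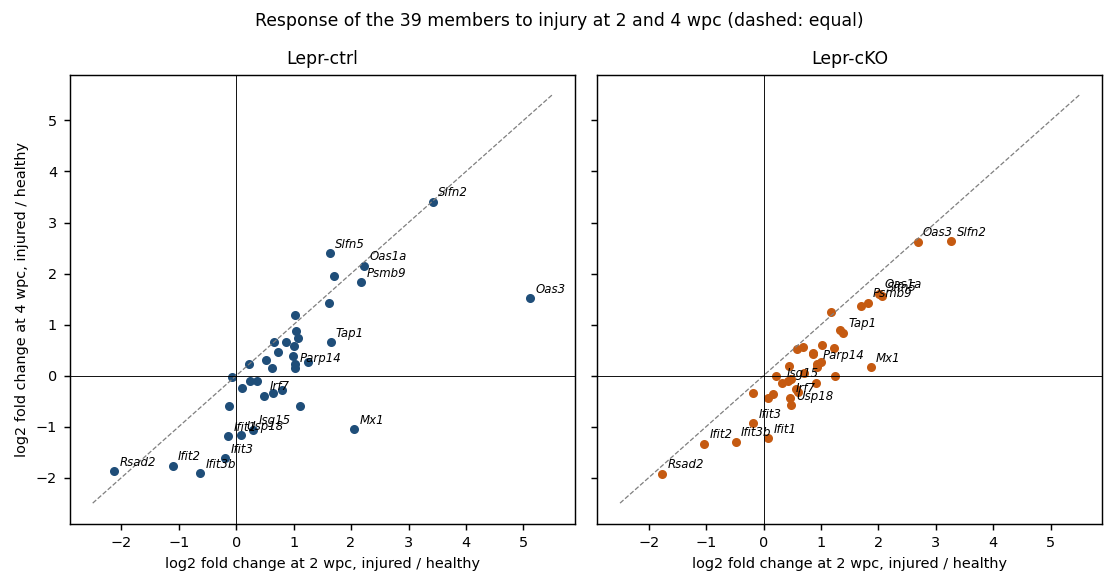
Log2 fold change of injured over healthy nerves at 4 wpc (vertical) against 2 wpc (horizontal) for the 39 genes, Lepr-ctrl left and Lepr-cKO right; the diagonal marks equal values. Most points lie below the diagonal, 34 of 39 in Lepr-ctrl and 38 of 39 in Lepr-cKO.

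Between genotypes none of the 39 genes was called. In injured nerves at 2 wpc edgeR called 0 of 39 and DESeq2 0, against 0.569% of all genes called higher in Lepr-cKO and 0% called lower by edgeR. All 10 skeletal muscle markers were among those called higher, and the Lepr-cKO group holds the nerve of mouse SLRKO2wpc126 with 41400 CPM of them. That share is thus not to be read as an effect of genotype alone. At an unadjusted p under 0.05 there were 0 of the 39, against 1187 of the 18442 genes tested. The smallest adjusted p was 0.873, for Ifi27l2a, and the median difference was 0.06. In injured nerves at 4 wpc edgeR and DESeq2 also called 0 of 39, against 0.363% of all genes higher and 0.0868% lower, and 24 of 39 values were below 0. At an unadjusted p under 0.05 there were 3 of the 39 genes, against 3667 of the 18442 genes tested. The share among the 39 is the smaller, so this count is no result about the list. The 3 genes were all lower in Lepr-cKO: Slfn5 (-0.76 ± 0.28 (SE), adjusted p = 0.116), Eif2ak2 (-0.71 ± 0.29 (SE), adjusted p = 0.159) and Slfn2 (-0.79 ± 0.32 (SE), adjusted p = 0.164).

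The values behind them were as follows. Slfn2 in injured nerves at 4 wpc was at 38.4, 32.2, 38.2 and 47.2 CPM in Lepr-ctrl and 16.6, 28.6, 16.7 and 28.6 CPM in Lepr-cKO. Eif2ak2 was at 17.5, 17.7, 17.5 and 20.6 CPM in Lepr-ctrl and 6.98, 13.4, 11 and 13.5 CPM in Lepr-cKO. Slfn5 was at 112, 101, 91.1 and 129 and 37.6, 56.5, 47.9 and 113 CPM. The genotypes did not overlap for Slfn2 and Eif2ak2, and overlapped for Slfn5 through the Lepr-cKO nerve of mouse KO-177, without which Slfn5 passed both limits (log2 difference -1.20, adjusted p = 0.00577). In the same nerves macrophage markers summed to 2220 to 4760 CPM in Lepr-ctrl and 1490 to 2500 CPM in Lepr-cKO, and Schwann cell markers to 25500 to 35200 and 31200 to 79400 CPM. Mitochondrial genes took 17.2% to 21.6% of the counts in Lepr-ctrl and 2.95% to 20.2% in Lepr-cKO, the lowest being mouse KO-169, whose nerve was also the lowest for all 3 genes. Without it the log2 differences were -0.66 for Slfn2, -0.53 for Eif2ak2 and -0.58 for Slfn5. The part of these measures in the differences was not tested.

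In healthy nerves edgeR and DESeq2 called 0 of 39 genes between genotypes at either time, against 0.00542% of all genes higher and 0% lower at both times by edgeR. At an unadjusted p under 0.05 there were 0 of the 39, against 222 (2 wpc) and 346 (4 wpc) of the 18442 genes tested. At 2 wpc 35 of 39 values were above 0, and without the healthy nerve of mouse SLRKO2wpc135 it was 14. At 4 wpc 27 were below 0, and without the healthy nerve of mouse WT-173, 36 were above 0. The direction of the list between healthy genotypes thus turned with 1 nerve at each time. The effect of the genotype on the injury response was called for 0 of 39 genes at 2 and at 4 wpc by edgeR and DESeq2 (0% of all genes by edgeR). At an unadjusted p under 0.05 there were 0 and 1 of the 39, against 797 and 2013 of the 18442 genes tested. The 1 was Slfn5 (-0.84 ± 0.37 (SE), adjusted p = 0.431).

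Around the 39 genes, the other parts of the pathway moved unevenly in Lepr-ctrl at 2 wpc, where 19.8% of all genes tested rose and 14.3% fell. The lists of 6, 8 and 7 genes below are short, and their counts are no result beside such shares. None of 6 receptor genes was called, Ifnar1 being lower (-0.43 ± 0.10 (SE), adjusted p = 0.000219) and Ifngr1 likewise (-0.50 ± 0.16 (SE), adjusted p = 0.00571), Ifnar2 and Ifngr2 slightly higher (0.30 ± 0.11 (SE), adjusted p = 0.0191 and 0.40 ± 0.09 (SE), adjusted p = 0.000237), Il10rb at 0.01 and Ifnlr1 at 0.97. Of 8 signalling genes 3 rose, Irf5 (3.47 ± 0.27 (SE), adjusted p = 5.66e-13), Irf8 (3.38 ± 0.26 (SE), adjusted p = 4e-13) and Irf1 (1.04 ± 0.11 (SE), adjusted p = 1.04e-09), factors used by macrophages and by interferon gamma signalling, while among those not called Jak1 was at 0.01, Jak2 at -0.10, Tyk2 at 0.65 and Irf3 at 0.59. Of 7 inhibitors 3 rose, Socs1 (2.89), Ptpn6 (2.86) and Ptpn2 (1.02). Of 19 tested nucleic acid sensing genes 10 rose, led by Aim2 (2.86), Sting1 (2.85) and Tlr8 (2.69). Of 60 other interferon-induced genes 33 rose, led by the chemokines Cxcl9 (5.73) and Ccl5 (4.90) and by Ifi205 (4.66). At 4 wpc in Lepr-ctrl 0 of 6, 2 of 8, 2 of 7, 10 of 19 and 33 of 60 rose in the same order, against 20.1% of all genes. From the last list 1 fell, Rnf213 (-1.14), against 15.9% of all genes. In Lepr-cKO the numbers were 1, 2, 4, 10 and 33 at 2 wpc (20.9% of all genes) and 1, 2, 2, 10 and 23 at 4 wpc (16.8% of all genes), the receptor being Ifnlr1. Tgtp2 (-1.21) fell at 4 wpc, against 10.8% of all genes. No gene of these lists was called between the genotypes in injured nerves by edgeR, against 0.569% of all genes higher at 2 wpc and 0.363% higher and 0.0868% lower at 4 wpc. The share at 2 wpc includes the muscle markers named above.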

How the data were processed

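RNA of 39 sciatic nerve endoneuria was sequenced with single 50-base reads. Per the study's methods the authors used STAR 2.5 (at most 2 mismatches) for alignment to GRCm38 and featureCounts 1.5.0-p1 for counting per gene, and the deposited values are their raw read counts per library, not normalized and not filtered. Demultiplexing used bcl2fastq 2.20.0.422. The use of strand and the handling of reads with several alignments are not given in the sources used here, so counts of overlapping genes and near copies are uncertain. Libraries were placed in 8 groups of 4 to 6 from their titles and treatment labels.

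In R 4.3.3, counts were fitted with edgeR 4.0.16 over all 39 libraries (TMM factors, edgeR's filter on low expression at its default minima of 10 reads in the smallest group's number of libraries and 15 in all, quasi-likelihood test, Benjamini-Hochberg adjustment over 18442 genes), with the authors' limits of an adjusted p below 0.05 with a log2 fold change beyond 1 in either direction. CPM used TMM factors, and a library's ratio to the median of the other libraries added 0.25 CPM to both. Scripts were tested on simulated data. The members, lists and tests were chosen with earlier results of these data known. Values in every library are given for the most abundant member of each role, the 3 largest and 3 smallest fold changes in Lepr-ctrl at 2 wpc, and members called between genotypes or times. Every member is named, values of 1 gene of the pathway lists are not reported here, and further members and libraries shown were chosen after their values were seen. Alternatives were DESeq2 1.42.0, its size factors, no filter, mitochondrial genes left out, only the groups compared, a term for sex, an adjusted p alone, each library left out, and the mouse as a block.

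Nerves of 1 mouse carry the same mouse number in the titles. Over 5000 genes, deviations from the group means correlated at r = -0.085 to 0.277 between the 2 nerves of a mouse, above 0.1 in 10 of 17 mice. Shared 50-base stretches and overlaps came from GENCODE M21 on GRCm38, and promoters from RefSeq (GRCm38.p6).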

Additional observations from a re-analysis of the deposited data

Results flagged for a closer look

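For 14 of the genes, each group of 4 to 6 libraries was searched for a highest or lowest library whose gap to the next exceeded Dixon's 95% limit. For normally distributed values chance gives about 1 in 20 groups. The search used CPM without a log scale, and Oas3 held zeros, so that rate need not hold here. Of 112 groups 19 had such a library, and in all 19 it was the highest. The groups of different genes share libraries and are not independent.

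The healthy nerve of Lepr-ctrl mouse WT-173 at 4 wpc accounted for 5, namely Stat2 at 87.5 CPM (the others 45 to 54.5), Oasl2 at 66.2 CPM (18.3 to 28.2), Ifih1 at 27.2 CPM (13.7 to 16.7), Rsad2 at 37.7 CPM (9.89 to 15.2) and Oas3 at 0.867 CPM (0 to 0.162). At 4 wpc that of Lepr-cKO mouse KO-169 accounted for 4, with Ifit2 at 92.7 CPM (68.6 to 74.1), Isg15 at 32 CPM (7.29 to 13.7), Ifit3b at 28.8 CPM (7.87 to 13.6) and Oas3 at 0.351 CPM (0 to 0.0864). At 2 wpc that of Lepr-cKO mouse SLRKO2wpc135 accounted for 3, with Isg15 at 24.6 CPM (8.84 to 12.3), Oasl2 at 36.5 CPM (16.8 to 23.9) and Ifit3b at 21.8 CPM (7.53 to 12.6).

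Among injured nerves, Lepr-cKO mouse SLRKO2wpc125 at 2 wpc had Isg15 at 33.5 CPM (11 to 13.4) and Oas3 at 4.21 CPM (0.319 to 0.367), and Lepr-cKO mouse SLRKO2wpc135 at 2 wpc had Ifih1 at 23.1 CPM (14.8 to 16.1). At 4 wpc Lepr-cKO mouse KO-175 had Isg15 at 19.3 CPM (9.88 to 10.9), Lepr-cKO mouse KO-177 had Oasl2 at 46.6 CPM (26 to 29.4) and Lepr-ctrl mouse WT-178 had Ifit2 at 29 CPM (20.5 to 21.8). In healthy nerves at 2 wpc, Lepr-ctrl mouse SLRKO2wpc123 had Oas3 at 0.155 CPM (0 to 0.0303), which is 5 reads.

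The response to injury in Lepr-ctrl nerves differed between 4 and 2 wpc for Parp14, by -0.86 on the log2 scale, and for Tap1, by -0.99, at an edgeR adjusted p of 0.0158 and 0.0245. Of the 39 differences (log2 fold change at 4 wpc minus that at 2 wpc) in Lepr-ctrl nerves 34 were below 0, and 27 without the healthy nerve of mouse WT-173. A value below 0 is a smaller rise or a deeper fall, the latter in Ifit2 and Ifit3b among others.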

How the results depend on the processing

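The counts of called genes for the injury comparisons stayed within 1.5 times of those reported under DESeq2, its size factors, no filter, mitochondrial genes left out, only the compared groups and a term for sex. The mouse as a replicate block gave 11 rather than 19 in Lepr-ctrl at 2 wpc and, among the genes of the other injury comparisons, no call that the unblocked fit lacked. For the response at 4 minus 2 wpc in Lepr-ctrl, reported as 0, DESeq2 gave 1, leaving out mitochondrial genes 2, no filter 1 and an adjusted p alone 2. The cause was not tested. Leaving out 1 library at a time gave 12 to 19 calls in Lepr-ctrl at 2 wpc, 11 to 14 at 4 wpc, 11 to 18 in Lepr-cKO at 2 wpc, 7 to 10 at 4 wpc, 0 to 1 between genotypes in injured nerves at 4 wpc and 0 to 3 for 4 minus 2 wpc in Lepr-ctrl (3 without the healthy nerve of mouse WT-170). Log2 fold changes of genes that were not called turned sign in that exercise for Isg15 in Lepr-cKO at 2 wpc (-0.087 to 0.60) and 4 wpc (-0.44 to 0.43) and for Ifit1 in Lepr-ctrl (-0.57 to 0.078) and Lepr-cKO (-0.30 to 0.43) at 2 wpc. Over all genes, 105 were called between genotypes in injured nerves at 2 wpc by edgeR and 26 by DESeq2, and at 4 wpc edgeR called 67 higher and 16 lower and DESeq2 94 higher and 37 lower. The edgeR calls at 2 wpc include all 10 skeletal muscle markers, which were high in the injured nerve of Lepr-cKO mouse SLRKO2wpc126. Depth limits what can be said of Oas3 and of the interferon genes, which have few or no reads.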
